A study of Mus musculus with 7 samples.

Results

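Transcript levels of 10 genes of mitochondrial fatty acid beta-oxidation were followed in the apical myocardium of 7 mice. The genes were chosen by name (Cpt2, Acadl, Acadm, Acads, Hadha, Hadhb, Hadh, Decr1, Ech1 and Etfdh), and all 10 were found among the 20343 genes of the table analysed. Every animal carried the NSG-DRB1*0101 background, NSG being an immunodeficient strain without T, B or natural killer cells of its own and DR1 a human HLA class II transgene. There were 4 untreated control mice and 3 mice given human CD4+ T cells, whose hearts were sampled 6 weeks after the transfer. Inflammation and ageing of the myocardium under terminally differentiated CD4+ T cells are the subject named in the series title. The ages of the mice and the number of T cell donors are not given in the sources used here, and each heart carries an identifier of its own in the labels.

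Beta-oxidation is the mitochondrial pathway that shortens fatty acids to acetyl-CoA, and the adult heart draws most of its energy from it. Long-chain acyl groups enter the matrix as carnitine esters and are released as acyl-CoA by the inner-membrane enzyme encoded by Cpt2. Each round then runs through an acyl-CoA dehydrogenase, a hydratase, a hydroxyacyl-CoA dehydrogenase and a thiolase, while the electrons taken by the dehydrogenases reach ubiquinone through electron transfer flavoprotein and its dehydrogenase. Unsaturated fatty acids need additional enzymes that move or remove double bonds. The authors' table describes Ech1 as peroxisomal, and its product is known from both peroxisomes and mitochondria, so the label of a mitochondrial enzyme holds for it only in part.

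The 10 genes were among the more abundant of the genes analysed, which run from chromosome 1 to the beginning of chromosome 8. All shares and counts-per-million (CPM) values are of the counts over these genes, not of a whole library. Together they took 2.15% ± 0.0717 (SD, n = 4) of these counts in a control heart and 2.09% ± 0.129 (SD, n = 3) in a transferred heart. The ranges, 2.053% to 2.205% and 2.003% to 2.240%, overlapped. Each had between 6609 and 138528 counts in a heart, so all 10 passed the filter on low counts, and counting error alone was at most 1.23% of a value. None of the 10 passed the edgeR quasi-likelihood test at an adjusted p-value under 0.05, where 0.235% of the 7667 tested genes did. Unadjusted p-values under 0.05 were found for 3 members, Cpt2, Acads and Etfdh, all lower in transferred hearts. Of all tested genes, 12.4% had such a p-value and 5.27% had it with a lower level. DESeq2 and limma-voom also called 0 of the 10 after adjustment and placed 3 under an unadjusted 0.05. DESeq2 called 3.26% of all tested genes and had 12.9% under an unadjusted 0.05, and limma-voom called 0% and had 11.8%. That count of 3 differed when single hearts were left out. It was 0 without control heart 2 or without transferred heart 2, and 1 without control heart 1, 3 or 4. Over all tested genes the share was 8.66% and 9.06% without the first 2 of these hearts, and 10.9%, 12.8% and 10.2% without the other 3. The fitted log2 fold changes of Cpt2, Acads and Etfdh were -0.33, -0.23 and -0.16 without control heart 2, close to the -0.33, -0.21 and -0.17 of all hearts, and -0.20, -0.14 and -0.16 without transferred heart 2.

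The fitted log2 fold change was below 0 for 8 members and above 0 for 2, Decr1 and Ech1. Over all tested genes, 50.3% were below 0. The median was -0.06 over the members and 0.00 over all tested genes, and the median absolute change was 0.08 against 0.13. Without transferred heart 1 the members' median was -0.14. In 9 members the 95% interval of the change stayed within 1.5-fold in either direction, the exception being Cpt2. Over all members the intervals ran from -34.8% to 25.2%.

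**Figure D1:**
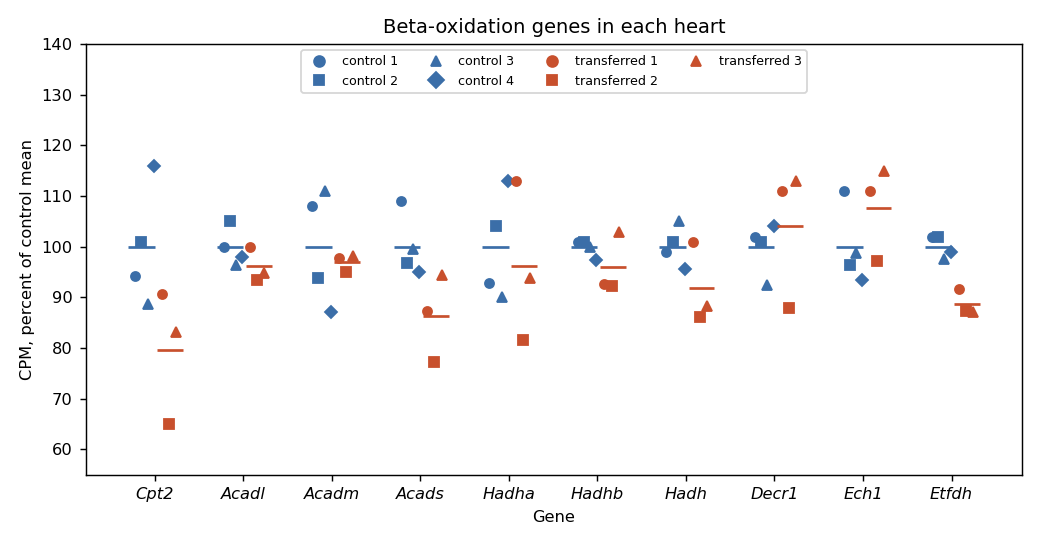
Counts-per-million (CPM) of each gene in each heart, as a percent of that gene's control mean (y axis), for the 10 genes (x axis). Blue symbols are the 4 control hearts, orange symbols the 3 transferred hearts, and short lines the group means. All 3 transferred hearts lie below all control hearts for Acads and Etfdh only, and transferred heart 2 is the lowest point for 7 genes, at 65.0% of the control mean for Cpt2.

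The lowest fold change was that of Cpt2, the only one of the 10 genes that acts at the entry step. Cpt2 (gene ID 12896, GRCm38 chromosome 4, 107903982 to 107923589, minus strand) encodes carnitine palmitoyltransferase of the inner membrane, which regenerates acyl-CoA in the matrix. Its TMM-scaled level was 451, 482, 424 and 557 CPM in the control hearts and 434, 311 and 398 CPM in the transferred hearts. Transferred hearts 2 and 3 lay below every control heart, transferred heart 1 lay above control heart 3, and the groups overlapped. The means were 479 ± 57.7 CPM (SD, n = 4) and 381 ± 63.2 CPM (SD, n = 3). On the log2 scale the fold change was -0.33 with a standard error of 0.13, a difference of -20.4% with a 95% interval from -34.8% to -2.77% (edgeR adjusted p = 0.332). The 2 hearts whose identifiers have a letter prefix, control heart 1 and transferred heart 1, differed by -0.06 on the log2 scale, and the 5 hearts with numbers alone by -0.46. Without transferred heart 2 the fitted change of Cpt2 was -0.20.

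The letters directly upstream of Cpt2, of Acads and between Hadha and Hadhb are shown because the first pair had the lowest fold changes of the 10 genes and the last pair is transcribed in opposite directions from a shared stretch. The sequences are from RefSeq (GRCm38.p6), written 5′ to 3′ on the strand of the named gene and cut off where GENCODE annotates an exon. Capitals mark every match, on either strand, to the 3 short motifs searched. These were GGGCGG, the core of a GC box, then CCAAT, the box of that name, and lastly AGGTCA, the half-site of many nuclear receptors. Cpt2 is chr4:107923611-107923839 on the minus strand, Acads is chr5:115119347-115119596 on the minus strand, and Hadhb is chr5:30155163-30155247 on the plus strand.
Cpt2: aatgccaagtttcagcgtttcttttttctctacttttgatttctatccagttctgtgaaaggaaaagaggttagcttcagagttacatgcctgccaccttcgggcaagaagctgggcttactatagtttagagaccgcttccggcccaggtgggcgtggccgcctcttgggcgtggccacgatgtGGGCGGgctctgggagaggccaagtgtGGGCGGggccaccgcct
Acads: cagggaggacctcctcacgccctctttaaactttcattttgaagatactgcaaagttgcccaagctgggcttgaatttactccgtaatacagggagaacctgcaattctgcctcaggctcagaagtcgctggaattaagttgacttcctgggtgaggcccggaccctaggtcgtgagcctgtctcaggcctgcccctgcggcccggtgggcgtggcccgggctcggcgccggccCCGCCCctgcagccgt
Hadhb: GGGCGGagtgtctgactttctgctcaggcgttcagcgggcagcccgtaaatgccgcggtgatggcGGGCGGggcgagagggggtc

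A promoter sequence was found for 9 of the 10 genes. Motifs were counted in the whole 250 bases before each start, exons included, for the 9 genes and for all genes alike, a longer window than the printed stretches. Within these 250 bases upstream of the start, GGGCGG had a match in 7 of the 9 and in 32.7% of 32851 promoters of all genes. Hadha and Hadhb, whose windows overlap, are both among the 7, and so is Ech1, whose stretch outside exons holds 0 matches. CCAAT had a match in 2 of the 9, Etfdh and Hadh, and in 33.8% of all, and for Etfdh the window has 0 bases left once exons are cut off. AGGTCA matched in Acadm alone and in 14.0% of all promoters. TCAAGGTCA, a longer form that contains AGGTCA and is read by estrogen-related receptors, matched in 0 of the 9 and in 0.387% of all promoters. In the printed stretches the capitals show 2 matches upstream of Cpt2, 1 upstream of Acads and 2 between Hadha and Hadhb.

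The acyl-CoA dehydrogenases carry out the opening oxidation of each round, on chains of different length. Acads (gene ID 11409, chromosome 5, 115110299 to 115119346, minus strand) encodes the short-chain enzyme. It stood at 704, 627, 645 and 616 CPM in control hearts and at 566, 501 and 612 CPM in transferred hearts. Every transferred heart was below every control heart, though control heart 4 and transferred heart 3 stood close together at 616 and 612 CPM. The fitted difference was -0.21 on the log2 scale with a standard error of 0.09 (edgeR adjusted p = 0.378), or -13.6% with an interval from -24.8% to -0.679%. The difference was -0.31 between the letter-prefix hearts and -0.18 among the others, and from -0.28 to -0.14 when each heart was left out in turn.

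Acadl (gene ID 11363, chromosome 1, 66830839 to 66863309, minus strand) encodes the long-chain dehydrogenase. Its level was 3007, 3157, 2890 and 2939 CPM in control hearts and 3000, 2804 and 2841 CPM in transferred hearts. Transferred heart 1 lay inside the control range and the other 2 just under it, and the log2 fold change was -0.06 with a standard error of 0.08 (edgeR adjusted p = 0.832). It was -0.09 without transferred heart 1 and -0.03 without control heart 2. Acadm (gene ID 11364, chromosome 3, 153922353 to 153944643, minus strand) encodes the medium-chain enzyme. It measured 3300, 2862, 3385 and 2662 CPM in control hearts and 2982, 2904 and 2998 CPM in transferred hearts. All 3 transferred values of Acadm fell inside the control range, with a coefficient of variation (CV) of 1.70% against 11.4% in control hearts. Its log2 fold change was -0.04 with a standard error of 0.10 (edgeR adjusted p = 0.901), and it was 0.01 without control heart 3, 0.00 without control heart 1, -0.07 without control heart 2 and -0.10 without control heart 4.

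Hadha and Hadhb encode the alpha and beta subunits of the trifunctional protein, which performs the hydratase, hydroxyacyl-CoA dehydrogenase and thiolase steps on long chains. Hadha (gene ID 97212, chromosome 5, 30119423 to 30154980, minus strand) and Hadhb (gene ID 231086, chromosome 5, 30155253 to 30184593, plus strand) lie head to head with 272 bases between their RefSeq starts. Hadha was at 2945, 3291, 2854 and 3586 CPM in control hearts and at 3570, 2584 and 2971 CPM in transferred hearts. Control heart 4 and transferred heart 1 were high and transferred heart 2 was low, so the groups overlapped widely. The log2 fold change of Hadha was -0.06 with a standard error of 0.13 (edgeR adjusted p = 0.893). It was 0.28 between the letter-prefix hearts and -0.22 among the others, so its direction differed between the 2 forms of identifier, and it was 0.05 without transferred heart 2, 0.01 without control heart 4 and -0.19 without transferred heart 1.

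Hadhb varied less between control hearts. It stood at 5359, 5341, 5318 and 5150 CPM in control hearts, a CV of 1.82%, the lowest of the 10 genes. In transferred hearts it was at 4906, 4882 and 5453 CPM, 2 hearts under the control range and 1 over it. The log2 fold change was -0.06 with a standard error of 0.08 (edgeR adjusted p = 0.836), and it was -0.11 without transferred heart 3 and -0.03 without transferred heart 1 or 2. Reads of Hadhb cannot be fully separated from a pseudogene on chromosome 2 (Hadhb-ps, 108948770 to 108950728), whose GENCODE transcript is 99.79% identical to a Hadhb transcript over 1428 bases. The table lists that pseudogene at 2196 to 2576 CPM, between 0.448 and 0.481 of the Hadhb counts of the same heart. How reads matching both were counted is not given in the sources used here. The log2 fold change of Hadhb-ps was also -0.06, and it was -0.06 for the sum of both, an alternative chosen after seeing the data.

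Per kb of combined exons, the ratio of Hadha to Hadhb was 1.07, 1.19, 1.04 and 1.35 in control hearts and 1.41, 1.03 and 1.06 in transferred hearts. Control heart 4 and transferred heart 1 had the highest ratios, and the ratio varied 1.37-fold over the 7 hearts without separating the groups. Whether it lay above or below 1 depended on the pseudogene. With the Hadhb-ps counts added to Hadhb, the ratio was 0.719, 0.825, 0.716 and 0.929 in control hearts and 0.957, 0.708 and 0.726 in transferred hearts, below 1 in all 7. The shared upstream stretch printed above thus lay between genes with control CVs of 10.6% (Hadha) and 1.82% (Hadhb).

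**Figure D2:**
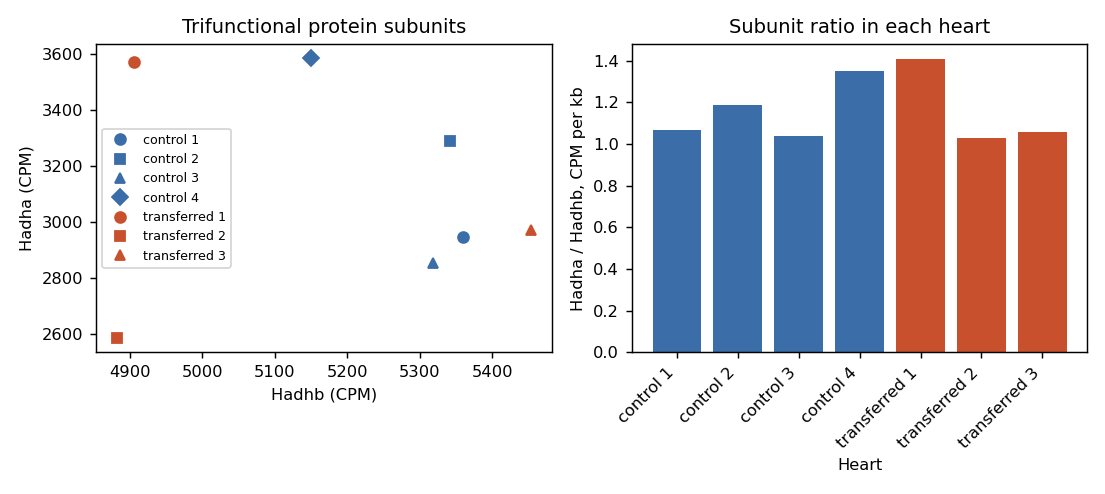
Left, CPM of Hadhb (x axis) and Hadha (y axis) in each heart. Right, ratio of Hadha to Hadhb in CPM per kb of exon (y axis, from 0) for each heart (x axis), with control hearts in blue and transferred hearts in orange. Ratios run from 1.03 in transferred heart 2 to 1.41 in transferred heart 1, and the groups overlap. With Hadhb-ps counts added to Hadhb, which is not plotted, all 7 ratios are below 1, from 0.708 to 0.957.

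Hadh (gene ID 15107, chromosome 3, 131233419 to 131272101, minus strand) encodes the hydroxyacyl-CoA dehydrogenase that acts on shorter chains. It was at 503, 512, 532 and 486 CPM in control hearts and at 515, 438 and 450 CPM in transferred hearts. Transferred hearts 2 and 3 were below the control range, whereas transferred heart 1 was inside it. Hadh differed by -0.12 on the log2 scale with a standard error of 0.08 (edgeR adjusted p = 0.595), and by -0.20 without transferred heart 1 and -0.08 without transferred heart 2. The difference was 0.03 between the letter-prefix hearts and -0.20 among the others.

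Both genes for the handling of double bonds had fitted changes above 0. Decr1 (gene ID 67460, chromosome 4, 15917240 to 15945377, minus strand) encodes mitochondrial dienoyl-CoA reductase. Its level was 890, 880, 804 and 904 CPM in control hearts and 966, 765 and 985 CPM in transferred hearts. Transferred hearts 1 and 3 were above the control range and transferred heart 2 below it, and the log2 fold change was 0.06 with a standard error of 0.10 (edgeR adjusted p = 0.864). Without transferred heart 3 it was -0.01, without transferred heart 1 it was 0.01, without control heart 3 it was 0.02 and without transferred heart 2 it was 0.17. Ech1 (gene ID 51798, chromosome 7, 28825338 to 28832239, plus strand) encodes a dienoyl-CoA isomerase. Ech1 stood at 2942, 2546, 2607 and 2466 CPM in control hearts and at 2928, 2567 and 3027 CPM in transferred hearts. Only transferred heart 3 exceeded the control range, and the log2 fold change was 0.11 with a standard error of 0.10 (edgeR adjusted p = 0.726). It was 0.06 without transferred heart 3, 0.07 without control heart 4 and 0.17 without transferred heart 2.

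Etfdh (gene ID 66841, chromosome 3, 79603788 to 79628767, minus strand) encodes electron transfer flavoprotein-ubiquinone oxidoreductase, through which the electrons of all acyl-CoA dehydrogenases enter the respiratory chain. It measured 1937, 1944, 1859 and 1885 CPM in control hearts and 1748, 1667 and 1661 CPM in transferred hearts. The groups did not overlap and were tight, with CVs of 2.16% and 2.89%. The fit gave -0.17 for Etfdh on the log2 scale (standard error 0.07), or -11.2% with an interval from -20.9% to -0.391% (edgeR adjusted p = 0.385; DESeq2 adjusted p = 0.114). It was -0.15 between the letter-prefix hearts and -0.19 among the others, and between -0.20 and -0.16 when each heart was left out in turn. The gene overlaps the opposite-strand gene Ppid by 23 bases, and Ppid had at most 3066 counts where Etfdh had at least 29874.

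Groups did not overlap in 2 of the 10 genes, Acads and Etfdh, both lower in transferred hearts. Of all tested genes, 11.2% did not overlap, and 5.22% did so with the transferred hearts lower. Each of these 2 had an exact two-sided permutation p of 0.0286, the smallest that 4 against 3 hearts allow (adjusted over all tested genes, 0.406). When libraries were scaled by the summed counts of 19 cardiomyocyte markers, 1 of the 10 did not overlap, and when scaled by 32 respiratory chain subunit genes, 0 did not. The members' median log2 fold change was -0.01 under each of these scalings, where the median of all tested genes was 0.05 and 0.04. In bulk tissue, fewer cardiomyocytes and less transcript per cardiomyocyte cannot be told apart.

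**Figure D3:**
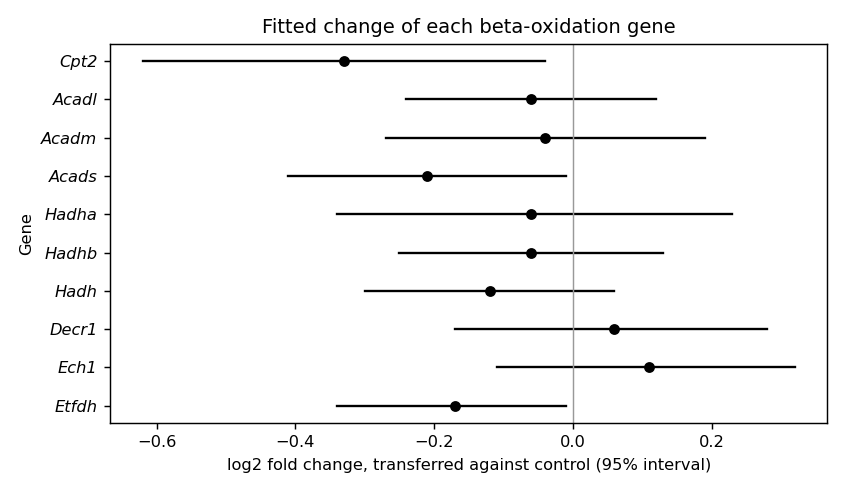
Fitted log2 fold change of each gene (y axis) in transferred against control hearts (x axis), points with 95% intervals from the edgeR fit. Intervals for Cpt2, Acads and Etfdh lie below 0 before adjustment for multiple tests, and those of the other 7 genes include 0.

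Variation between hearts was not shared equally. In control hearts the CV ran from 1.82% for Hadhb to 12.1% for Cpt2, with a median of 5.60% over the 10 genes. The 1749 tested genes with a mean of at least 100 CPM had a median of 7.06%. In transferred hearts the median was 8.70% for the 10 genes and 8.48% for those 1749. Transferred heart 2 was the lowest of the 7 hearts for 7 genes, control heart 4 for Acadm and Ech1, and transferred heart 3 for Etfdh. The highest value was spread over control hearts 1 to 4 and transferred heart 3. Transferred heart 3 held it for 3 genes (Hadhb, Decr1 and Ech1), control hearts 2, 3 and 4 for 2 each and control heart 1 for Acads.

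The 10 genes were put in order of level only by CPM per kb of combined exons. In control hearts Ech1 was highest at 2320 ± 184 (SD, n = 4), followed by Acadl at 1539 ± 59.5 and Acadm at 1480 ± 168. Hadha was at 1167 ± 124, Hadhb at 1005 ± 18.3 and Etfdh at 836 ± 18.0. A step of 2.41-fold separated Etfdh from Acads at 347 ± 21.0, with Decr1 at 307 ± 15.8, Hadh at 284 ± 10.5 and Cpt2 at 204 ± 24.6 after it. The control ranges overlapped between Acadl and Acadm, between Acadm and Hadha, and between Decr1 and Hadh. Within single hearts the gene named first was the higher in 5, 6 and 6 of 7 hearts for these 3 pairs. Among all 7667 tested genes Ech1 ranked 30, Acadl 48 and Acadm 51 by mean CPM per kb over the 7 hearts, and Cpt2, the lowest member, ranked 386. The combined exon length of Hadhb, 5266 bases, is the longest of the 10. Its place in the order also depended on the pseudogene. With the Hadhb-ps counts added, Hadhb had a mean of 1466 in the 4 control hearts, with a range of 1421 to 1507 that lay above that of Hadha and inside that of Acadm.

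**Figure D4:**
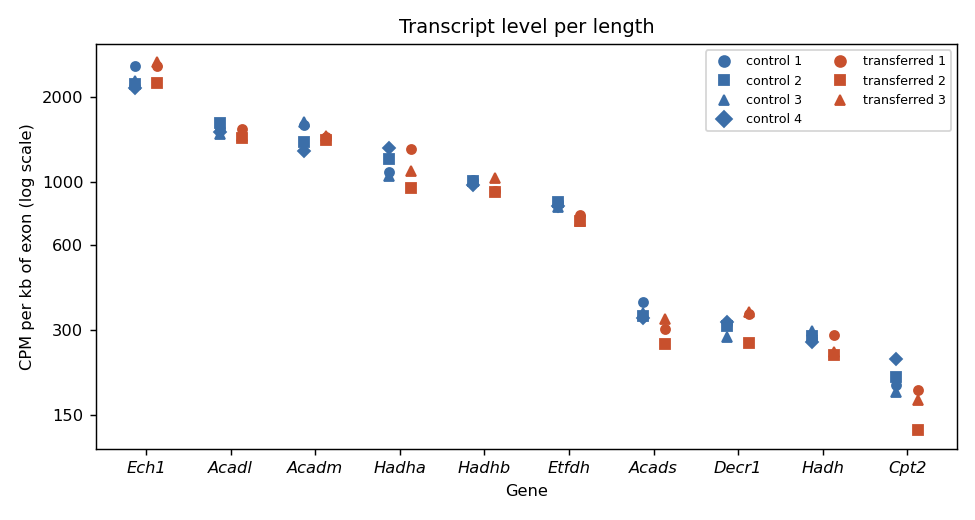
CPM per kb of combined exons (y axis, log scale) of the 10 genes (x axis, ordered by control mean) in each heart, control hearts in blue and transferred hearts in orange. Ech1 is highest at a control mean of 2320 and Cpt2 lowest at 204, with a gap of 2.41-fold between Etfdh and Acads.

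Acads and Decr1 exchanged places in this order. Per kb, the ratio of Acads to Decr1 was 1.20, 1.08, 1.21 and 1.03 in control hearts and 0.888, 0.990 and 0.940 in transferred hearts. Acads was thus the higher of the pair in 4 of 4 control hearts and the lower in 3 of 3 transferred hearts. This pair was singled out after its values were seen, and no test was made of it.

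Further genes of the same pathway were taken from a list. Of 23 other mitochondrial beta-oxidation genes, 9 were in the table and all 9 were tested. None was called by the edgeR test or by DESeq2 and 0 had an unadjusted p-value under 0.05, with a median log2 fold change of -0.04. Echs1, the short-chain enoyl-CoA hydratase, differed by -0.01 and Etfb, the beta subunit of electron transfer flavoprotein, by 0.09. Crat, which buffers acyl-CoA as carnitine esters, differed by -0.15 and Acss1, a mitochondrial acetyl-CoA synthetase, by 0.20. Acad9, an acyl-CoA dehydrogenase that also serves complex I assembly, differed by -0.17. Them4, Acad10, Acad12 and Cpt1c differed by -0.16, -0.07, -0.04 and 0.18, the last at 3.73 CPM in control hearts.

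Neighbouring metabolic lists were also without a call by the edgeR test, against the 0.235% of all tested genes called. Of 8 tested branched-chain and odd-chain acyl-CoA genes, 6 were lower, with a median log2 fold change of -0.14. In 4 of the 8 the groups did not overlap, all 4 lower, beside 5.22% of all tested genes. The same held for 2 of 7 peroxisomal, 2 of 9 tricarboxylic acid cycle, 2 of 32 respiratory chain and 1 of 17 regulator genes, and for 0 of the 9 other beta-oxidation and 0 of the 11 uptake genes. An unadjusted p-value under 0.05 was found for 3 of the 8, and DESeq2 called 1. Hibch, a hydrolase of valine breakdown, was at 286, 292, 288 and 286 CPM in control hearts and at 250, 250 and 247 CPM in transferred hearts. Its log2 fold change was -0.21 (edgeR adjusted p = 0.201, DESeq2 adjusted p = 0.0208). Hibch was named for having 1 of the 3 smallest p-values of its list, so its small spread is a description. Ivd, the isovaleryl-CoA dehydrogenase, and Mcee, an epimerase of propionyl-CoA breakdown, differed by -0.25 and -0.26 (edgeR adjusted p = 0.283 and 0.197).

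Of 7 tested peroxisomal beta-oxidation genes, 6 were lower, with a median of -0.11 and 1 at an unadjusted p-value under 0.05, Pecr at -0.28. DESeq2 called 0 of them. Acox3 and Scp2 differed by -0.13 and 0.14. Of 11 tested genes of fatty acid uptake and activation, 8 were lower with a median of -0.07, and 0 reached an unadjusted p-value under 0.05 or were called by DESeq2. Fabp3, the cytosolic fatty acid carrier of heart muscle, was at 10073 and 8993 CPM in control and transferred hearts, which is -0.16 on the log2 scale (edgeR adjusted p = 0.571). Pnpla2, the triglyceride lipase, and Acsl3, an acyl-CoA synthetase, differed by -0.27 and -0.22.

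Regulators lay on both sides of 0. Of 17 tested, 9 were lower and 8 higher, with a median of -0.01, 2 at an unadjusted p-value under 0.05 and 1 called by DESeq2. Ppargc1a, a coactivator of mitochondrial gene expression, was at 207, 199, 206 and 206 CPM in control hearts and at 233, 307 and 255 CPM in transferred hearts. Every transferred heart was above every control heart, and the log2 fold change was 0.37 with a standard error of 0.09 (edgeR adjusted p = 0.143, DESeq2 adjusted p = 0.0203). Its fitted change had the opposite sign to that of 8 of the 10 enzymes, none of which was called. Of these, Acadm and Hadha changed sign when single hearts were left out. Ucp3, a mitochondrial carrier of the uncoupling protein family, was at 49.9, 64.4, 41.5 and 55.5 CPM in control hearts and at 39.9, 17.3 and 37.2 CPM in transferred hearts. Its log2 fold change was -0.75 with a standard error of 0.28 (edgeR adjusted p = 0.325), and transferred heart 2 was the lowest, as it was for Cpt2. Prkab2, a subunit of AMP-activated kinase, differed by -0.36.

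Of 9 tested tricarboxylic acid cycle genes, 7 were lower, with a median of -0.07 and 1 at an unadjusted p-value under 0.05. Pdhx, a structural component of pyruvate dehydrogenase, differed by -0.28 (edgeR adjusted p = 0.178, DESeq2 adjusted p = 0.0332), Idh2 by 0.20 and Suclg1 by -0.11. Of 32 tested respiratory chain subunit genes, 26 were lower and 2 had an unadjusted p-value under 0.05, with a median of -0.05 beside the -0.06 of the 10 enzymes. Cox7a1, the heart and muscle form of a cytochrome oxidase subunit, differed by -0.36 (edgeR adjusted p = 0.183, DESeq2 adjusted p = 0.0237). Ndufa3 and Ndufc1 of complex I differed by -0.21 and -0.16.

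**Figure D5:**
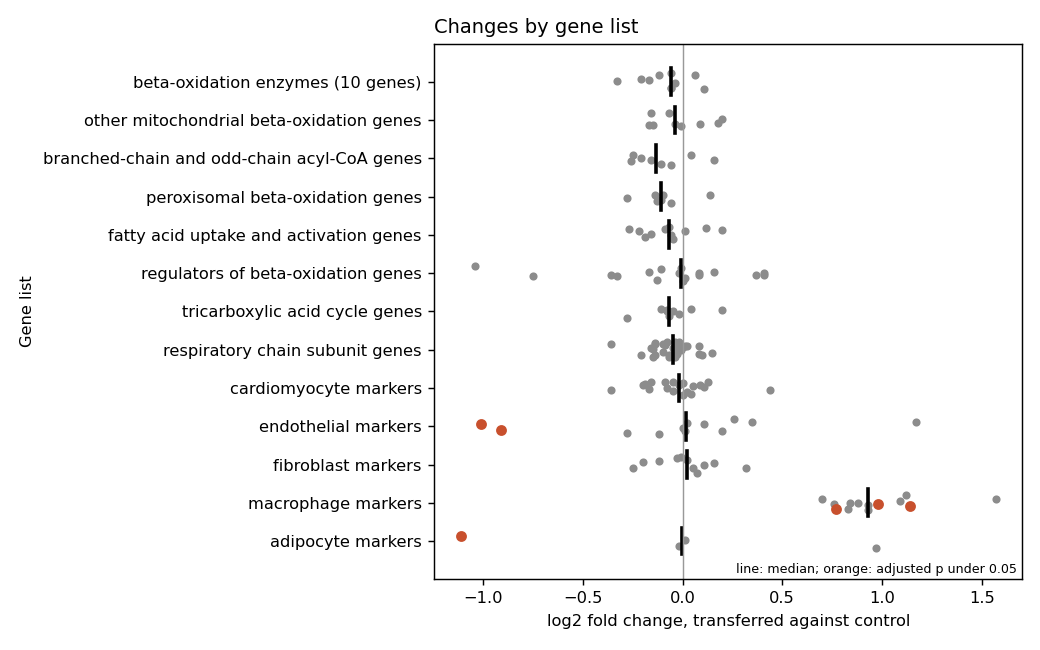
Fitted log2 fold change (x axis) of every tested gene of each list (y axis), with the list median as a black line and genes at an edgeR adjusted p under 0.05 in orange. The 10 enzymes centre on -0.06 and the macrophage markers on 0.93, and no gene of a metabolic list is in orange.

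Cell type markers were read beside these values. Their lists were chosen with earlier results of these data known. All 19 cardiomyocyte markers in the table were detected, with a median log2 fold change of -0.02, 0 called by edgeR, 1 at an unadjusted p-value under 0.05 and 1 called by DESeq2. Of the 19, 12 were lower and 7 higher. The groups did not overlap in 2 of them, both higher. Tnnt2, cardiac troponin T, stood at 18382 CPM in control and 20144 CPM in transferred hearts (log2 fold change 0.13, edgeR adjusted p = 0.595). Corin, the protease that activates natriuretic peptides, was at 292 and 395 CPM (0.44, edgeR adjusted p = 0.117) and was the gene with the unadjusted p-value under 0.05. Xirp2, a protein of the intercalated disc, was at 1882 and 1470 CPM (-0.36, edgeR adjusted p = 0.452). The list had a summed level of 151349 to 177863 CPM in control and 149057 to 181934 CPM in transferred hearts. Of 13 macrophage markers, 13 had a level above that of control hearts and an unadjusted p-value under 0.05. In 11 of the 13 the groups did not overlap. Over all tested genes, 12.4% had such a p-value and 11.2% did not overlap, in either direction. Of the 13, the edgeR test called 3, C1qb, Coro1a and Mrc1, where it called 0.235% of all tested genes. DESeq2 called 12, where it called 3.26%. These edgeR calls, and those of the endothelial and adipocyte markers below, were lost with limma-voom, with the identifier-prefix covariate, without control heart 1, 2 or 4 or transferred heart 2, and without the 2 letter-prefix hearts, where 0 genes in all were called. Without control heart 3, 1 gene in all was called. The macrophage markers' summed level was 541 to 809 CPM in control and 942 to 1433 CPM in transferred hearts, the highest in transferred heart 2. Of 12 endothelial markers, 4 were lower and 8 higher, with a median of 0.01. The edgeR test called 2, Aqp1 and Aplnr, both lower, and DESeq2 also called 2, while 5 had an unadjusted p-value under 0.05, 3 of them lower and 2 higher. Tie1, an endothelial receptor, differed by -0.28 (edgeR adjusted p = 0.185) and Vwf, von Willebrand factor, named after its value was seen, by 1.17 (edgeR adjusted p = 0.200). The summed level of the list was 4048 to 4739 CPM in control and 3788 to 4358 CPM in transferred hearts. Fibroblast markers had 0 called by edgeR or DESeq2 and 0 at an unadjusted p-value under 0.05, a median of 0.02 and a summed level of 5742 to 7739 and 5444 to 8157 CPM. Fn1, Col5a2 and Dpt, which encode matrix proteins, differed by 0.32, -0.25 and 0.11. Of 8 adipocyte markers in the table, 4 were tested, and Thrsp was called, lower. The summed level of the tested markers was 1251 to 1427 and 1131 to 1547 CPM. Control means were 107 CPM for Thrsp, 28.2 CPM for Pparg and 0.637 CPM for Car3. The larger part of the sum was thus Fabp4, which is also on the endothelial list. Pparg and Car3 differed by -0.02 and 0.97, the latter at no more than 3.49 CPM in any heart. The 7 tested neutrophil and T cell markers summed to 37.20 to 49.10 CPM in control and 39.25 to 284.7 CPM in transferred hearts, with 0 called by edgeR, 5 at an unadjusted p-value under 0.05 and 4 called by DESeq2. The sum of 284.7 CPM was that of transferred heart 2, the heart lowest for 7 of the 10 enzymes, and transferred hearts 1 and 3 were at 39.25 and 65.22 CPM. S100a8, a neutrophil calcium-binding protein, was at 72.3 CPM in transferred heart 2 against 2.13 and 9.63 CPM in the other transferred hearts, and Cxcr2, a neutrophil chemokine receptor, at 16.4 against 1.11 and 1.83 CPM. Cd247, a T cell receptor chain, had low mean levels of 3.65 CPM in control and 1.76 CPM in transferred hearts. It differed by -1.06 on the log2 scale (edgeR adjusted p = 0.278). The markers are mouse genes, whereas the transferred T cells were human. No marker in the table was at 0 in all hearts. The part of these cell types in the values of the beta-oxidation genes was not tested.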

How the data were processed

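Polyadenylated RNA of 4 control and 3 transferred hearts was sequenced, per the labels, in paired-end mode with 75 nt reads with about 55 M reads stated per sample. The submitters' processing notes name GRCm38.p6, bcl2fastq 2.20.0.422, cutadapt 2.5, STAR 2.7.2b, featureCounts 1.6.4 and DESeq2 1.22.2 without roles. The authors deposited unnormalized estimated counts per gene over combined exons. They are called estimated because 4.63% of values (10 of the 70 values of the 10 genes) had a fractional part, and they were rounded before testing. The 20343 complete rows run from chromosome 1 to the beginning of chromosome 8, and 1 unfinished row was left out. Other genes, including other enzymes of the pathway, are not analysed here. Column totals were 16402179 to 25190560 counts, sums over this part of the genome only.

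Genes were filtered with filterByExpr, scaled by TMM and tested with the robust quasi-likelihood test of edgeR 4.0.16 in R 4.3.3, with Benjamini-Hochberg adjustment over 7667 genes and a threshold of 0.05. Standard errors came from the F statistic and intervals from its degrees of freedom. These p-values set the group difference against the spread between these hearts, with dispersion estimates that share information across genes. The procedure was tested on simulated data. Same-group libraries differed by chi-square values of 17.4 to 77.2 per degree of freedom, so none looked like a repeat. Alternatives were other scalings and filters, DESeq2 1.42.0, limma-voom (limma 3.58.1), no robust estimation, unrounded values, left-out hearts, an identifier-prefix covariate and exact permutation. Near-identical copies were sought with blastn among GENCODE M21 transcripts. Copies of Hadhb on chromosome 15 and of Acadm on chromosome 8 were found outside the part analysed. The members and gene lists were chosen with earlier results of these data known. Named genes were the 10 members, all tested genes of the other beta-oxidation list, and in each further list the called genes and the 3 with the smallest p-value. The 5 genes nearest the members' mean profile were added. Vwf, named after its value was seen, and Fabp4, named for its part in a summed level, fall outside this rule.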

Additional observations from a re-analysis of the deposited data

Results flagged for a closer look

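In the 4 control hearts, 55 genes were checked for a heart far from the other 3 on the log2 CPM scale (prior count 2). Of these, 5 stood out, where chance gives 1 in 20 groups, or 2.75. None was among the 10 enzymes. Control heart 3 was low for 4 genes. It was at 7.133 for Acad9 against 7.248 to 7.259 in the other control hearts, at 10.821 for Crat against 11.010 to 11.047, at 9.498 for Pnpla2 against 9.890 to 9.919, and at 8.004 for Corin against 8.221 to 8.260. Control heart 2 was at 7.639 for Ppargc1a against 7.690 to 7.696.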

How the results depend on the processing

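None of the 10 enzymes was called under any of the 21 refits or the exact permutation test, and the lowest adjusted p-value was 0.114, for Etfdh with DESeq2. Acadl, Acads, Hadh, Hadhb, Cpt2, Ech1 and Etfdh kept their direction in all 22 alternatives. Leaving out single hearts turned the other 3, with log2 fold changes of -0.10 to 0.01 for Acadm, -0.01 to 0.17 for Decr1 and -0.19 to 0.05 for Hadha. Of the 10, 3 had an unadjusted p-value under 0.05. That count was 1 with cardiomyocyte list scaling, 0 with respiratory chain list scaling, 1 without the 2 letter-prefix hearts and 0 to 3 when single hearts were left out. Of all tested genes, 9.26%, 10.6% and 13.6% had such a p-value under the first 3 of these settings and 8.66% to 14.6% without single hearts, against 12.4%. The number without overlap, 2, became 1 and 0 under these 2 scalings. The members' median of -0.06 ran from -0.14 to -0.03 without single hearts, and was -0.01 with each of these 2 scalings, where that of all tested genes was 0.05 and 0.04. Adding Hadhb-ps counts to Hadhb, chosen after seeing the data, moved the control mean of Hadhb from 1005 to 1466 CPM per kb and the Hadha to Hadhb ratio from 1.16 to 0.797. Genes called in the related metabolic lists numbered 0, and 4 with DESeq2 (Hibch, Ppargc1a, Pdhx and Cox7a1). Over all tested genes 18 were called, 250 with DESeq2, 0 with limma-voom and with the identifier-prefix covariate, 35 with total count scaling, 31 with cardiomyocyte list scaling, 89 with respiratory chain list scaling, 81 with all genes of at least 1 count and 0 to 140 without single hearts. The cause was not tested. No paired analysis was possible because the groups share fewer than 2 replicate numbers in the titles, and the numbers used here follow accession order.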

Other observations

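Among 5063 tested genes with a mean of at least 10 CPM that are not among the 10 enzymes, the 5 whose pattern over the 7 hearts lay nearest the enzymes' mean standardised profile had a Pearson r of 0.97 to 0.98 with it over 7 hearts. They were picked for that value, so it is a description and has no p-value. They were Clpb, a mitochondrial chaperone of the AAA+ family, Abcb4, a phospholipid transporter, Fan1, a DNA repair nuclease, Mettl14, a subunit of the RNA adenosine methyltransferase, and Mrm2, a mitochondrial ribosomal RNA methyltransferase. Their log2 fold changes were -0.17, -0.14, -0.13, -0.13 and -0.26, and none was called by the edgeR test (adjusted p = 0.478, 0.556, 0.733, 0.591 and 0.434). In the enzymes' profile transferred heart 2 stood at -1.31 standardised units, against -0.05 to 0.60 in the other 6 hearts.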
